A study of Homo sapiens with 2 samples.

Results

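The CC chemokine cluster of chromosome 17 was examined in TCF3::HLF-HiChIP, a chromatin immunoprecipitation joined to chromosome conformation capture, in which each measurement is an interaction between a pair of 5-kb bins. Its members were CCL3, CCL4, CCL3L3, CCL4L2, CCL3L1, CCL5, CCL18 and CCL23. An interaction belonged to the cluster when at least 1 bin lay within 50 kb of the body of a member gene in GENCODE release 44 on hg38, or was the bin starting at 36080001 or at 36190001. This gave 51 of the 49245 interactions in the deposited list and of the 1897 on chromosome 17. The bins at 36080001 and 36190001 were chosen by the contact count of the interaction that joins them, so the values of that interaction are a description, with no test. The rows of the list are themselves selected on a q-value under 0.01, and how many interactions each cluster gene has was known when the cluster was chosen.

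The cells were HAL-01, a t(17;19) leukemia cell line that carries the TCF3::HLF fusion, stably expressing Cas9GFP and selected for a stable knockout (KO) of wild-type TCF3 after introduction of an sgRNA. The fusion was precipitated with an E2A (TCF3) antibody, and the KO leaves it as the remaining TCF3 product that the antibody can bind. There was 1 condition with 2 replicates, which the authors merged before interactions were called, so no value has a replicate error, no groups were compared, and no test across samples was possible. The list has no expression values, so neither the KO of TCF3 nor the identity of the cells could be checked in it.

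CC chemokines are small secreted proteins that draw leukocytes along a gradient through G protein-coupled receptors. CCL3 and CCL4, the macrophage inflammatory proteins, are made by activated immune cells and attract monocytes, T cells and natural killer cells. The part of the cluster that holds CCL3 and CCL4 is duplicated in the human genome, and the copy holds CCL3L3 and CCL4L2, with copy numbers that vary between people. Reads from the copies can be told apart only where their sequences differ, so the sequences come before the contact counts.

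In hg38, the stretch of chromosome 17 from 36078621 to 36110053, with CCL3 and CCL4, aligned in the same orientation to 36184635 to 36217319, with CCL3L3 and CCL4L2. Of 30917 aligned bases, 1626 were mismatched, which is an identity of 94.7%, and another 2284 bases lay in 150 gaps. Over the gene bodies, CCL3 (ENSG00000277632.2, 36088256 to 36090169, minus strand) and CCL3L3 (ENSG00000276085.1, 36194869 to 36196758, minus strand) were 92.8% identical, with 139 edits in 1928 alignment columns. CCL4 (ENSG00000275302.2, 36103827 to 36105621, plus strand) and CCL4L2 (ENSG00000276070.5, 36210924 to 36212878, plus strand) were 88.8% identical. Across the gene pair that lies within a copy, CCL3 and CCL4 were 55.6% identical.

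The promoters of CCL3 and CCL3L3 are shown as an example of how the copies differ next to a gene start. Each is the 250 bases before the RefSeq start on GRCh38.p14, given 5′ to 3′ on the minus strand. The positions are chr17:36090144-36090393 for CCL3 and chr17:36196759-36197008 for CCL3L3. Bases that differ in the alignment of these windows are in capitals.
CCL3: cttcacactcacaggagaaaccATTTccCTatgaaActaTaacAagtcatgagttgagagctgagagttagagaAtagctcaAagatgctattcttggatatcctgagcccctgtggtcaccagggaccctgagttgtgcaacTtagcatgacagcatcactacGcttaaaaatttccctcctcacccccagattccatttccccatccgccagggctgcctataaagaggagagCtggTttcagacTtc
CCL3L3: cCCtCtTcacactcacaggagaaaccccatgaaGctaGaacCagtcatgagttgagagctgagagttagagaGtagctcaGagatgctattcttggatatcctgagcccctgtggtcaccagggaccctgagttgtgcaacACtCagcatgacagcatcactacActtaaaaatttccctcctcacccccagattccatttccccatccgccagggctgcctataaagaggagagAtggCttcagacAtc
The aligned windows differed at 10 mismatches and in 7 gaps of 12 bases in all, or 22 edits. The capitals in the first bases of CCL3L3 are gaps that come from cutting both windows at 250 bases. They are counted here but do not mark a difference between the copies. HLF, the DNA-binding part of the fusion, is a PAR bZIP factor, and its motif was searched here as TTACGTAA or TTATGTAA on both strands. Neither promoter had a match. Among 35116 RefSeq promoters from 250 bases before to 50 bases after the start, 330 (0.94%) had one.

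HLF motifs were present further from the start sites, and the windows of 30 bases around those in the aligned copies are shown for comparison, on the plus strand with the motif or the bases aligned to it in capitals. The first pair lies in the bins that the rule names, the second in the bins with the starts of CCL3 and CCL3L3, and the third upstream of CCL4 and CCL4L2.
Bin 36080001, motif from 36084181: aggctttaagtTTATGTAAaattcagtaaa
Bin 36190001, motif from 36190483: aggctttaagtTTATGTAAaattcagtaaa
Bin 36090001, motif from 36091481: ctatactatacTTACATAAatcatgccaaa
Bin 36195001, motif from 36198330: ctatactatacTTACATAAataatgccaaa
Bin 36095001, aligned bases from 36096402: aaggaaaaacaCTACATCAttccccaaatt
Bin 36200001, motif from 36202986: aaggaaaaacaTTATGTAAtttcccatctt
The windows of the first pair were identical, those of the second differed by 1 edit, and those of the third by 7 edits, with a motif in the CCL4L2 copy only. TTACATAA is TTATGTAA read on the opposite strand. The CCL3 copy had 1 more motif, from 36078525 in the bin at 36075001, outside the aligned stretch, so 3 of 8 bins of each copy held a motif. A match is a description of the sequence and not a measured binding site.

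The interaction that joins the copies links the bin at 36080001, downstream of CCL3 within the antisense transcript CCL3-AS1, to the bin at 36190001, which holds the end of CCL3L3. Its contact count, the number of read pairs that join the bins, was 156 (exact Poisson 95% interval, 132 to 182), with a P value of 9.95e-140 and a q-value of 1.53e-135 as deposited. It ranked 1 of the 3395 interactions between 100 and 120 kb, where the median was 25 and the next highest 136. This is 6.24 times the median at like distance (5.3 to 7.3 from counting error), and the next highest contact count in the cluster was 42. It ranked 18 of all interactions by contact count and 14 by P value. The sumCC, which adds the contact counts of the merged group of neighboring bin pairs, was 194, with 38 from other pairs, and it ranked 300 by this measure.

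The 2 bins of this interaction share 619 31-mers (words of 31 bases found in both on either strand), which is 12.5% of the 4970 words of a bin. They share 429 words of 50 bases, 123 of 100 bases and 16 of 150 bases, the read length, or 0.33% of 4851. A read pair from within a single copy can be placed across both where their sequences are the same or nearly so, and how many of the 156 read pairs come from them was not tested, since reads were not analysed here. Of the 51 cluster interactions, this was the 1 (1.96%) with 500 or more shared 31-mers, beside 0.0264% (13) of all interactions. Among the other 50, the highest number was 46. Any 31-mer was shared in 23 of the 51. That count has no share over all interactions beside it and is not read as a trait of the cluster.

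**Figure D1:**
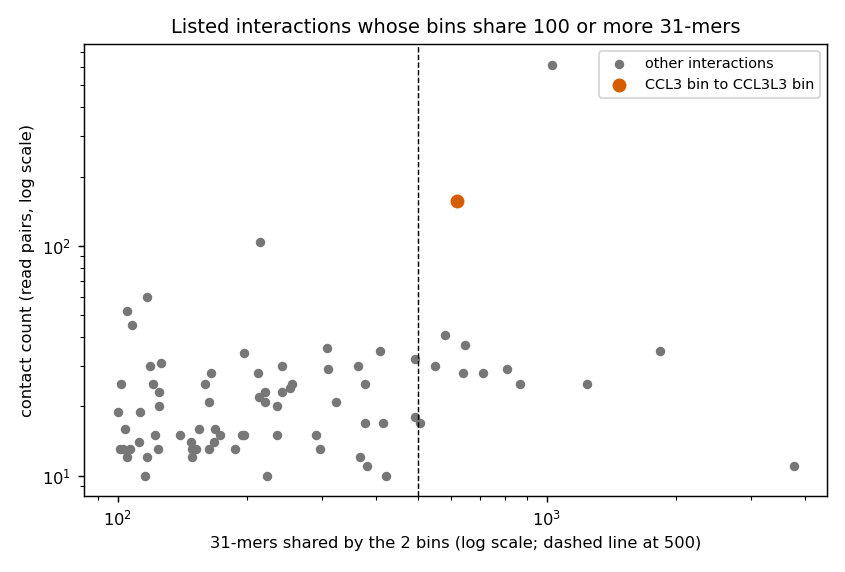
Number of 31-mers shared by the 2 bins of an interaction (x axis, log scale) against its contact count (y axis, read pairs, log scale), for the 78 listed interactions that share 100 or more, each a point. The CCL3 to CCL3L3 interaction, with 619 shared words and 156 read pairs, is second in contact count to a single point at 615 right of the dashed line at 500.

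Among the 13 interactions with 500 or more shared 31-mers, the CCL3 to CCL3L3 interaction ranked 2 by contact count and 10 by shared words. The other 12 had contact counts from 11 to 615 (median, 28.5). Of these 12, 9 were above the median at like distance, beside 48.1% of all interactions. Whether shared words bear on contact counts was not tested. The pair with the most shared words, 3766, had a contact count of 11.

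The copies also offer other pairs of matching bins. Between them, 14 bin pairs share 100 or more 31-mers and 7 share 500 or more, all 105 or 110 kb apart and so within the range of 50 kb to 3 Mb in which interactions were called. Of these 14, 1 has a line of its own in the list. The bins at 36100001 and 36205001, around CCL4, share 1858 words and as many as 931 words of 150 bases, and 5 of the 14 pairs share more words than the listed pair. The pair of the bins at 36080001 and 36185001, with 1425 shared words, lies within the merged group of the listed interaction, whose second range runs from 36185001 to 36200000. All bin pairs of that group passed (deposited fraction, 1), and those other than the listed pair had 38 read pairs together. The remaining pairs without a line of their own lie outside the merged groups of the cluster. They can have read pairs below the threshold, and their contact counts were not analysed here. The peaks used as reference in calling can also bear on which pairs are listed, which was not tested.

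The 2 copies differed widely in how many listed interactions reached them. The part that peak positions, the reference in calling, have in this was not tested. The 8 bins from 36180001, with CCL3L3 and CCL4L2, had 42 interactions, 82.4% of the cluster, with a contact count sum of 1267 over 6 bins. The 8 bins from 36075001, with CCL3 and CCL4, had 3 interactions with a contact count sum of 196 over 2 bins, 156 of it from the interaction that joins the copies. A bin was counted with a copy when it touched the aligned stretch at all. The other 2 interactions of the CCL3 copy came from the bin at 36110001, although that stretch ends at 36110053. In the CCL3L3 copy, 4 came from the bin at 36180001, although the aligned stretch starts at 36184635. At a q-value under 1e-05 the numbers were 29 and 2. Without alternate contigs, the share of unique sequence in hg38 was similar in both copies. The part of read placement in the interaction counts was not tested. Of the 31-mers in a bin, 50 to 75.1% (median, 63.9%) occurred once in the assembly in the CCL3L3 copy and 42.0 to 83.5% (median, 67.7%) in the CCL3 copy. For words of 150 bases these were 80.6 to 100% (median, 97.9%) and 78.1 to 100% (median, 99.9%).

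Read placement has further limits beyond the pair of copies. An alternate contig of hg38 for this region carries the CCL3 stretch with 7 mismatches over 109999 aligned bases, and the CCL3L3 stretch in 2 further copies, with 323 mismatches over 106233 bases and 103 over 87538. When alternate contigs were counted, unique words of 150 bases fell to 0% in every bin of the CCL3 copy and to 0 to 8.82% in the CCL3L3 copy. CCL3L1 is the copy of CCL3 that RefSeq places on this contig, and it has no entry in the GENCODE annotation used here. It was 99.8% identical to CCL3L3, with 4 edits in 1890 bases, and CCL3L3 itself had 1 identical copy on the contig. CCL3L1 therefore has no interaction of its own, and contacts given for CCL3L3 can include those of CCL3L1 and of any other copy in HAL-01. For the HiChIP reads the methods name hg38 and refer to the settings of the kit's pipeline documentation, which was not used here. Whether that genome held alternate contigs, and which mapping quality was required, is not given in the sources used here for these reads. For RNA-seq the methods name a build of hg38 without alternate contigs, and if the same was used for HiChIP, the unique shares without alternate contigs apply. The number of copies in HAL-01 cells was not analysed here, and its part in the contact counts was not tested.

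Across the cluster, contact counts ran from 14 to 156 with a median of 26 (95% interval from order statistics, 22 to 30), beside 24 for all interactions. The distance between bins was 50 to 2845 kb with a median of 320 kb, beside 255 kb. The contact count was above the median at like distance in 28 of the 51 (54.9%, Wilson 95% interval 41.4 to 67.7%), beside 48.1% of all interactions, and the median ratio was 1.13. A q-value under 1e-05 was reached by 36 (70.6%, 57.0 to 81.3%), beside 66.5%. Of the 51, 10 (19.6%, 11.0 to 32.5%) spanned more than 1 Mb, beside 13.7%. Apart from the interaction that joins the copies, the cluster was thus close to the list as a whole in contact count, and these intervals treat interactions as independent although many share a bin. Both bins were in the cluster in 18 interactions, and 1 bin in 33.

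A motif for HLF was present in at least 1 bin of 32 interactions (62.7%, 49.0 to 74.7%), beside 66.8% of all interactions, and in both bins of 6 (11.8%, 5.51 to 23.4%), beside 16.2%. By bin, 9 of the 28 anchor bins in the cluster (32.1%, 17.9 to 50.7%) held a motif, beside 17 of the 56 bins of the same windows without an interaction (30.4%, 19.9 to 43.3%) and 31.5% of all 53535 anchor bins of the list. The motif content of the cluster did not stand out from either, and the interval for 28 bins is wide. The start site of a protein-coding gene lay in at least 1 bin of 28 interactions (54.9%, 41.4 to 67.7%), beside 24.0%, but the windows were drawn around genes, so this share follows in part from the rule. Of the 51, 42 (82.4%, 69.7 to 90.4%) were listed as a single bin pair with no merged neighbor, beside 92.3%.

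CCL3L3 had the most interactions of the 8 genes. The bin with its start site, at 36195001, took part in 11, with contact counts from 14 to 39 (median, 31), and 34 interactions had a bin within 10 kb of the start. The 11 partners lay 190 to 2540 kb away. The highest contact count, 39 (27.7 to 53.3), was with the bin at 36005001, downstream of CCL23, and it was followed by 37 (26.1 to 51.0) each with the bins at 35905001, at 35155001 in UNC45B, a chaperone of muscle myosin, and at 37070001. The lowest, 14 (7.65 to 23.5), was with a bin in ASIC2, a proton-gated ion channel gene, 2540 kb away. The highest and lowest were picked by value and lay 190 and 2540 kb away, where the medians at like distance were 24 and 21. Their intervals do not overlap, which is a description with no test, and those of neighbors in this order do.

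CCL4L2 had 4 interactions at the bin of its start site, 36210001, with contact counts of 25, 25, 22 and 17. The partners were the bin at 36070001 in CCL18, the bin at 36535001 with starts of MYO19, a mitochondrial myosin, and PIGW, an enzyme of GPI anchor synthesis, the bin at 36675001, and the bin at 35830001 with a start of TAF15, an RNA-binding protein. The interaction with CCL18 joined start sites of a pair of member genes at a distance of 140 kb, with a contact count of 25 (16.2 to 36.9), equal to the median at that distance. All 4 intervals overlap.

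CCL3 and CCL4, the genes for which the cluster is best known, had no listed interaction at the bin of a start site. Within 10 kb of the start, CCL3 had 1, which was the interaction that joins the copies. CCL4 had 2, with contact counts of 21 (13.0 to 32.1) and 19 (11.4 to 29.7), both from the bin at 36110001, to a bin in TBC1D3B at 36165001 and to the bin at 35975001 with the start of CCL16. The bin with the start of CCL4, at 36100001, had the lowest share of unique words in its copy, 42.0% for 31 bases and 78.1% for 150 bases, whereas the bin with the start of CCL3, at 36090001, had 71.6% and 100%. A gene without a listed interaction has none past the q-value threshold, which does not show that it makes no contact. Interactions were called with MACS2 peaks as reference, so where peaks lay can also bear on what is listed. Peaks were not analysed here. The smallest contact count listed between 100 and 120 kb was 7.

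CCL5 (ENSG00000271503.7, 35871491 to 35880793, minus strand), which attracts T cells and eosinophils, had 1 interaction at its start bin, 35880001, with a contact count of 24 (15.4 to 35.7), to the start of LYZL6, a lysozyme-like gene 55 kb away. A further 2 interactions reached its body at 35875001, with 22 (13.8 to 33.3) from TAF15 and 16 (9.15 to 26.0) from the start bin of CCL3L3. CCL18 (ENSG00000275385.2, 36064272 to 36072032, plus strand), made by macrophages and dendritic cells, had 1 interaction at a start site, that of its shorter transcript, and this was the interaction with CCL4L2. CCL23 (ENSG00000274736.5, 36013056 to 36017972, minus strand), a chemoattractant of resting T cells and monocytes, had none at a start site and 2 within 10 kb, with contact counts of 39 and 28, both to the CCL3L3 copy.

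The members differed in their order accordingly, with 11 interactions at the start bin of CCL3L3, 4 at CCL4L2, 1 each at CCL5 and CCL18 and 0 at CCL3, CCL4 and CCL23. By partner bins, the member starts shared little. The start bins of CCL3L3 and CCL4L2 had no partner bin in common. Within 10 kb of the start, CCL3 and CCL3L3 met in the interaction that joins the copies.

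Most interactions of the cluster met in 5 neighboring bins, from 36180001 to 36205000, which were set as a group after their values were seen. These hold CCL3L3 and the sequence on either side of it. They took part in 38 of the 51 interactions (74.5%), with 4, 11, 8, 11 and 4 interactions per bin in order of position. The bins at 36185001 and 36195001 were used most often, and both ranked 675 among 53535 anchor bins, of which 1126 had 10 or more interactions. From the 5 bins, 21 interactions ran toward lower and 17 toward higher coordinates, with contact counts from 14 to 156 (median, 28.5) over distances from 50 to 2845 kb (median, 397.5 kb). The other 13 interactions had contact counts from 16 to 37 (median, 22) with a median distance of 140 kb. Over 1 Mb were 9 of the 38 and 1 of the 13.

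**Figure D2:**
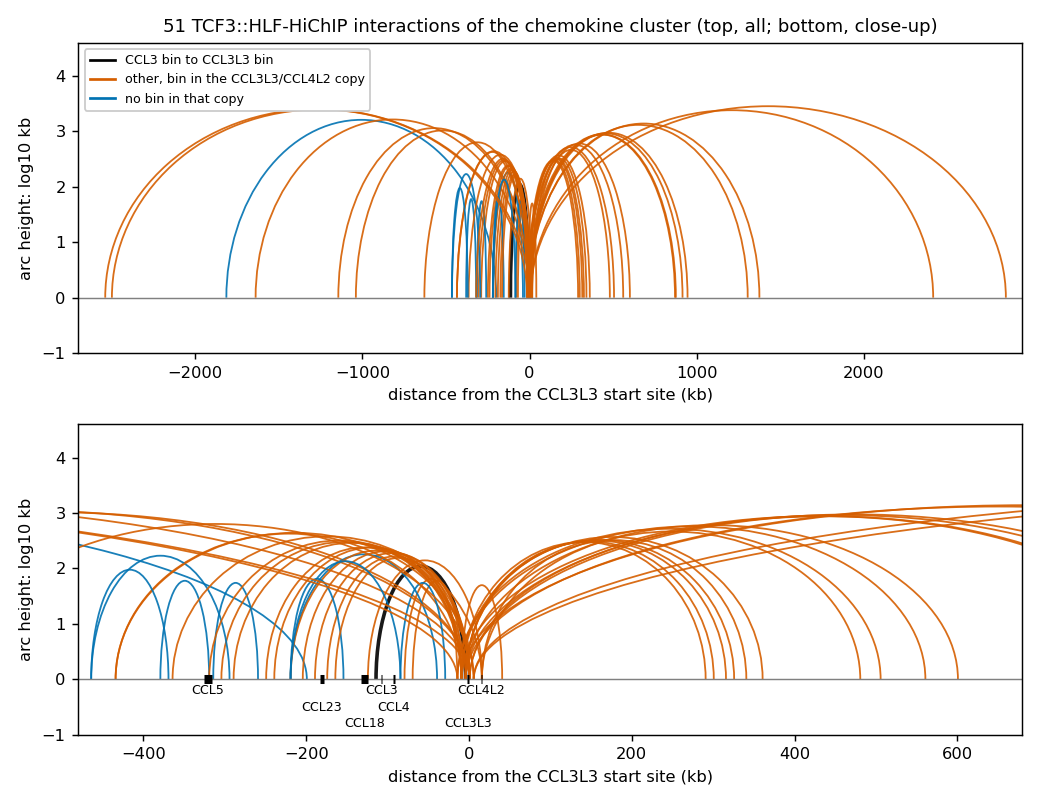
The 51 interactions as arcs between bin centers, against distance from the CCL3L3 start site (kb), for the whole range (top) and the neighborhood of the cluster (bottom, genes as black bars). Arc height is the log10 of the distance in kb. Orange arcs, which have a bin in the CCL3L3 and CCL4L2 copy, fan out in both directions from 1 place, and the black arc joins the CCL3 and CCL3L3 bins.

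The 5 bins had 37 partner bins. An HLF motif was present in 9 of the 37, beside 31.5% of all anchor bins of the list. Almost every partner was used once. The exception was the bin at 35760001, with the start of C17orf50 and part of MMP28, a secreted metalloproteinase, which met both the bin at 36185001 (29, 19.4 to 41.6) and the bin at 36200001 (17, 9.9 to 27.2). The bins at 37065001 and 37070001 lie side by side and met different bins of the 5, with 38 and 37 read pairs. Genes in partner bins that have no start site among the 10 highest contact counts are named from the annotation after their values were seen.

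Of the 17 partner bins at higher coordinates, 5 lay in MYO19, ZNHIT3 and GGNBP2, 300 to 370 kb away, and the other 12 were spread from 36235001 to 39045001. The bin at 36190001 met a start of MYO19 at 36510001 with 40 read pairs (28.6 to 54.5), 1.74 times the median at like distance, another start at 36495001 with 28 (18.6 to 40.5), and its body at 36520001 with 26 (17.0 to 38.1). The bin at 36185001 met the start of ZNHIT3, a factor in assembly of small nucleolar ribonucleoproteins, at 36485001 with 28 (18.6 to 40.5), and GGNBP2 at 36555001 with 30 (20.2 to 42.8). Further away were bins in ACACA, the acetyl-CoA carboxylase of fatty acid synthesis, with 31 (21.1 to 44.0) and 25 (16.2 to 36.9), in SYNRG with 34 (23.5 to 47.5) and in the phosphatase gene DUSP14 with 16 (9.15 to 26.0). The farthest interaction, from 36200001 to 39045001 over 2845 kb, had 32 (21.9 to 45.2).

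Among chemokine genes of the cluster, the 5 bins met CCL16 at its start (36185001 to 35975001, 28 read pairs, 18.6 to 40.5), a bin in the CCL15-CCL14 readthrough gene (36195001 to 35990001, 35 read pairs, 24.4 to 48.7) and the body of CCL5 (16 read pairs, 9.15 to 26.0). The start bin of CCL16, a chemokine of the liver, had 4 interactions, with contact counts of 37, 28, 26 and 19. The start bin of CCL15, at 35995001, had 1, with 37 (26.1 to 51.0) over 1615 kb to a bin at 34380001 that holds an HLF motif. The second highest contact count in the cluster, 42 (30.3 to 56.8), joined the bins at 36115001 and 36180001 over 65 kb. Both bins lie largely between the copies, since the aligned CCL3L3 stretch starts at 36184635, near the end of the second bin. A contact count of 38 (26.9 to 52.2) joined 36125001 and 36185001 over 60 kb. Neither pair has a start site of a protein-coding gene.

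The CCL3L3 copy lies between TBC1D3B and TBC1D3I, of a gene family that is itself duplicated in many places. In the 9 bins past CCL4L2, from 36220001, unique words of 150 bases were 12.4 to 82.5% (median, 21.0%), and the bins had 1 interaction, at 36235001 with a contact count of 24 and a unique share of 61.9%. In the 28 anchor bins of the cluster, unique words of 150 bases were 48.7 to 100% (median, 100%), and with alternate contigs 0 to 42.3%, with 20 of the 28 at 0%. Over 2091 anchor bins of chromosome 17 the median was 100% either way, and 84 were at 0% with alternate contigs. The limit that alternate contigs set thus reaches beyond the duplicated stretch to CCL5 and CCL18.

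Across a list of 28 CC chemokine and receptor genes, 13 had a start site in an anchor bin, beside 26.6% of 19970 protein-coding genes. By group these were 6 of 10 genes of the cluster and its direct neighbors (CCL3L3, CCL4L2, CCL16, CCL5, CCL15 and CCL18), 2 of 6 of the monocyte chemoattractant genes and 5 of 12 receptors. In the monocyte chemoattractant group, CCL8 had 13 interactions with contact counts from 18 to 85 and CCL1 had 1 with 63. Among receptors, CCR7, which guides lymphocytes to lymph nodes, had 5 with contact counts from 14 to 45, and CCR1, a receptor of CCL3, had 1 with 60. The list was made with earlier results of these data known.

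The 50-kb limit of the rule has few interactions close to it. Just inside was the interaction between 35730001 and 35825001, with a contact count of 16. Just outside, up to 100 kb from a member gene, were 4 interactions with contact counts of 41, 30, 25 and 21.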

How the data were processed

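TCF3::HLF-HiChIP libraries of 2 replicates were merged by the authors, who trimmed the reads (Trim Galore 0.6.6), aligned them to hg38 with BWA, extracted pairs without removing duplicates, called peaks with MACS2 and called interactions with FitHiChIP at 5 kb from 50 kb to 3 Mb at a q-value under 0.01, with merging. The deposited contact counts are read pairs per bin pair, without normalization, and a deposited fraction says what part of a group's bin pairs passed. Each deposited p-value and q-value is relative to the FitHiChIP model of distance and bias. The listed contact counts sum to 1268490, a depth that covers significant interactions alone.

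From the list, members, ranks and distances were computed. Exact Poisson and Wilson 95% intervals reflect counting error alone. With duplicates kept, the true error is larger. Like distance means within 10 kb of the same distance. Positions are 1-based in hg38, and 0 bins passed a chromosome end. Words of 31, 50, 100 and 150 bases were counted on both strands, over chromosomes with unplaced sequence and again with alternate contigs, with a counter tested on simulated data. The copies were aligned with minimap2 2.31 and the genes with edlib 1.3.9.post1. Promoters are from RefSeq, which matched 4 of the members (CCL3, CCL3L3, CCL18 and CCL23). By rule, a gene was named when it was a member, had a start site in 1 of the 10 interactions with the highest contact count, was in the chemokine and receptor list with a start site in an anchor bin, or overlapped the most used bin. Other genes in partner bins and flanks (such as UNC45B, TAF15 and ACACA) fall outside it and were named after their values were seen. Members and lists were chosen with earlier results of these data known. Alternatives were other windows, thresholds, word lengths and motifs. The tools were samtools 1.23.1, matplotlib 3.10.9, numba 0.67.0, pyfaidx 0.9.0.4, scipy 1.17.1, pandas 2.3.3, numpy 2.4.6 and Python 3.11.15.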

Additional observations from a re-analysis of the deposited data

How the results depend on the processing

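Replicates were merged before interactions were called, so leaving out a replicate was not possible. No paired analysis was possible because the list holds a single merged condition. The number of cluster interactions, 51 in the main setting, ran from 36 to 55 under the alternatives tried, lowest at a q-value under 1e-05. Their median contact count, 26 in the main setting, ran from 26 to 30. The busiest bin had 11 interactions in the main setting and 10 to 14 under the alternatives. Among interactions within 10 kb of its distance, the CCL3 to CCL3L3 interaction ranked 1 by contact count or P value and 45 by the sumCC of the merged group, and among those within 50 kb it ranked 13 by contact count. Its bins shared 619 words of 31 bases but 123 of 100 bases and 16 of 150 bases, and with words of 100 bases 0 cluster interactions reached 500. Anchor bins with a motif made up 3.57% for TTACGTAA alone. With the start site inside the bin in place of within 10 kb, interactions numbered 0 for CCL3, CCL4 and CCL23, 11 for CCL3L3, 4 for CCL4L2 and 1 each for CCL5 and CCL18. Within 5 kb they numbered 0 for CCL3 and CCL4, 4 for CCL4L2 and 1 for CCL18. Of the chemokine and receptor list, 25 genes had a bin within 10 kb of a start. No share over all protein-coding genes is given at this setting, and the 26.6% for start sites inside a bin is not its baseline. Unique words rose from 56.6% at 31 bases to 90.6% at 100 and 97.1% at 150 bases in the CCL3 bin at 36080001, and from 57.2% to 90.0% and 95.6% in the CCL3L3 bin at 36190001. With alternate contigs, an alternative chosen after seeing the data, both were 0%. The counts of interactions of the copies at a q-value under 1e-05 (2 and 29), without the interaction that joins them (2 and 41) and at 20 or more read pairs (2 and 31) were also chosen after seeing the data. Depth limits single contact counts: a contact count of 14 has an interval of 7.65 to 23.5.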
